A study of Mus musculus with 8 samples.

Results

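Axotomy in wild-type ganglia was examined by comparing 2 libraries made after sciatic nerve axotomy, named WT SNI, with 2 libraries made after sham surgery, named WT sham. The libraries are those whose genotype label names no Cre, 4 of the 8 libraries of the series, and the genes are the 12884 of 21878 listed that reached 1 FPKM in at least 2 of the 8 libraries. All libraries came from dorsal root ganglia of lumbar levels 4 and 5 of C57BL/6 mice, collected 3 days after surgery. The WT mice carried floxed alleles of both Myh9 and Myh10 and no Cre, so neither gene, each the heavy chain of a non-muscle myosin II, was deleted. The same floxed alleles with Advillin-Cre, which acts in sensory neurons, define the other genotype, dKO, with 2 libraries after sham surgery and 2 after axotomy. The dKO libraries enter here through the shared estimate of spread and 1 test of the difference in response. Neither age nor sex nor the number of animals per library is stated in the sources used here, and the labels leave it unstated whether libraries of 1 group are different animals. A p-value here thus measures only how far these libraries spread, which may be technical.

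A sensory neuron of these ganglia sends 1 branch of its axon through the peripheral nerve and another into the spinal cord. Cutting the peripheral branch is known to switch the cell body from a signalling state to a growth state: transcription factors of the AP-1 and Sox families appear, growth cone proteins and a new set of neuropeptides are made, and many channels, receptors and transmitter peptides of the resting neuron decline. The surrounding satellite glia, Schwann cells, fibroblasts and macrophages are known to respond as well. In a bulk sample, fewer cells of a type and less RNA per cell cannot be told apart, and not every neuron of these ganglia has its axon in the sciatic nerve.

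Values are FPKM, fragments scaled to transcript length and to the mapped fragments of the library. A change is the mean log2(FPKM + 1) in WT SNI minus that in WT sham, which makes the change of a gene with low values look smaller than its ratio of FPKM, and ± is its standard error in limma (n = 2 libraries per group). A gene is called when its two-sided adjusted p in limma (Benjamini-Hochberg, over all 12884 genes) was under 0.05, and the words rose and fell are used for called genes. A call is said to hold throughout when the same direction was also called in each of the 4 fits that left out 1 WT library. Such a fit leaves a group with 1 library, which is then assumed to vary like the other groups. Genes are described in 50 lists of known function with 1312 entries, of which 1139 reached 1 FPKM in 2 libraries. A member that reached it only after axotomy had to differ, so counts and medians over a list describe its tested members and support nothing by themselves.

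The labels were checked first. Myh9 measured 27.2 and 31.6 FPKM after sham surgery and 30.8 and 29.7 FPKM after axotomy in WT, and 10.9 and 12.1 FPKM (sham) and 24.6 and 24.4 FPKM (SNI) in dKO. Myh10 measured 18.1 and 23.5 FPKM after sham surgery and 13.8 and 10.4 FPKM after axotomy in WT, and 12.2 and 14.4 FPKM (sham) and 5.31 and 4.12 FPKM (SNI) in dKO. Avil, the gene whose promoter drives Cre in the dKO mice, measured 172 and 180.1 FPKM after sham surgery and 143 and 112 FPKM after axotomy in WT, and 75.3 and 79.97 FPKM (sham) and 44.1 and 34.5 FPKM (SNI) in dKO. At either surgery both dKO libraries lay below both WT libraries for all 3 genes. In WT, Myh10 fell (log2 change -0.74 ± 0.18), though it was not called without WT sham 2 or without WT SNI 2, and Myh9 and Avil did not pass (changes of 0.04 and -0.47). The defining markers of sensory neurons (Isl1, Pou4f1, Tubb3, Prph and Scn10a beside Avil) were all measured at 18.7 FPKM or more in every WT library. Those of satellite glia, Schwann cells and macrophages were also present, though the macrophage marker Adgre1 lay under 1 FPKM in both WT sham libraries.

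The WT libraries differed in other ways that move with the surgery or with 1 library. Totals of FPKM ran from 278310 to 316056 in the 4 WT libraries, and 11696 to 12298 genes reached 1 FPKM. Transcripts of 4 genes of the Y chromosome (Ddx3y, Eif2s3y, Kdm5d and Uty) were present in WT sham, with Eif2s3y at 9.98 and 9.79 and Ddx3y at 8.05 and 8.12 FPKM, and listed at 0 or below 0.01 FPKM in WT SNI. In the dKO genotype the pattern was the other way round, with Eif2s3y at 0 and 0 FPKM after sham surgery and 17.8 and 16.6 FPKM after axotomy. Within WT, a change after the surgery therefore cannot be told apart from a difference between animals with and without Y-linked transcripts. Whether the labels of 2 groups were exchanged was not tested. Values of the genes deleted in dKO are given above by label. Atf3, a factor induced in injured neurons, measured 2.71 and 7.26 FPKM (sham) and 178 and 147 FPKM (SNI) in WT. In dKO it measured 10.01 and 9.07 FPKM (sham) and 163 and 148 FPKM (SNI). WT sham 2 held skeletal muscle transcripts: Ckm measured 3.17 and 138 FPKM (sham) and 0.343 and 1.79 FPKM (SNI), and Acta1 3.01 and 149 FPKM (sham) and 0.716 and 1.71 FPKM (SNI). WT SNI 2 had the highest hemoglobin and neutrophil values of the 4, with Hbb-bs at 888 and 792 FPKM after sham surgery and 1213 and 3143 FPKM after axotomy and S100a8 at 244 and 322 FPKM after sham surgery and 411 and 859 FPKM after axotomy. The part of these differences in the results was not tested, except through the fits that leave these libraries out.

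**Figure D1:**
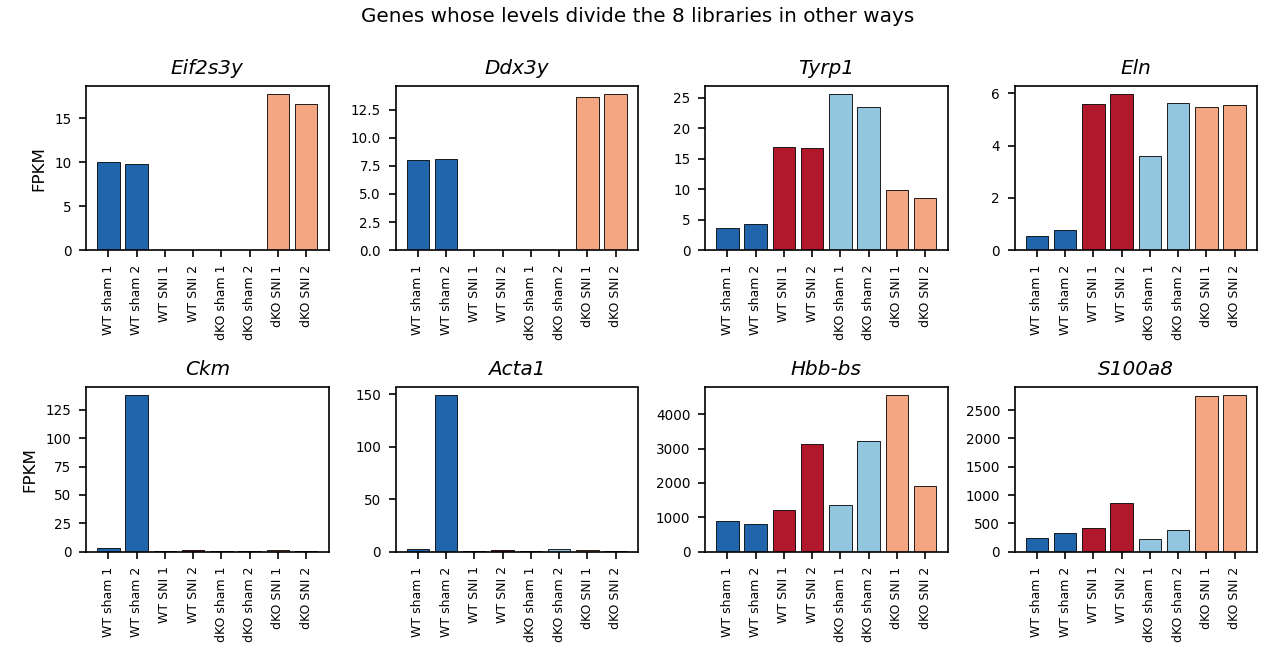
FPKM (vertical axes, linear and starting at 0) of 8 genes in each of the 8 libraries, 1 bar per library. Eif2s3y and Ddx3y were present in WT sham and dKO SNI only, and Ckm and Acta1 stood out in WT sham 2. Tyrp1 and Eln were low in WT sham and higher in WT SNI, dKO sham and dKO SNI.

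Axotomy was followed by calls in 2967 of the 12884 genes (23%). Of these, 1758 rose (13.6% of the genes tested) and 1209 fell (9.38%). Calls that held throughout were fewer, 593 rises (4.6%) and 279 falls (2.17%), and each of these 872 was also called with either other pseudocount, without the filter on low values, under both other scalings, with robust moderation, in the fit to the WT libraries alone, with the replicate block and without each dKO library. The count of calls depended on single libraries: it was 1389 without WT sham 1, 1101 without WT sham 2, 2517 without WT SNI 1 and 1133 without WT SNI 2. Without both WT sham 2 and WT SNI 2, an alternative chosen after seeing the data, 439 of the 2967 calls were made again in the same direction.

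Rises were larger than falls. Of the called genes, 547 rose by at least 1 on the log2 scale and 178 fell by as much, while 84 rose and 3 fell by at least 2. The 3 are Eif2s3y and Ddx3y, which are Y-linked, and Comp. The median over all tested genes was 0.07, and the median of the called genes was 0.78 for rises and -0.70 for falls. The share of rises among the calls depended on the scaling: it was 59.3% as deposited, 49.9% with libraries centred on their medians and 45.9% after quantile normalization. The FPKM of the groups did not overlap in 69.0% of all tested genes, so a lack of overlap alone says little about a gene.

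**Figure D2:**
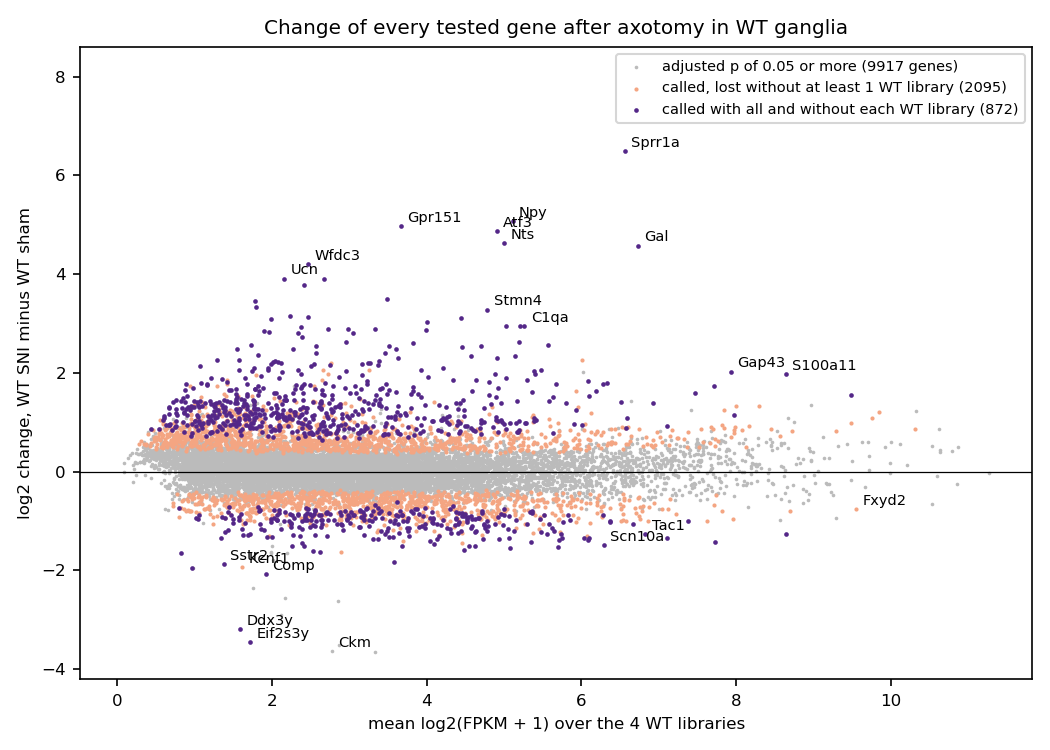
Log2 change (vertical axis, WT SNI minus WT sham) against mean log2(FPKM + 1) over the 4 WT libraries (horizontal axis) for the 12884 tested genes. Purple points are the 872 calls that held throughout, orange points the other 2095 calls and grey points the 9917 genes not called. The largest rise is 6.49, and 84 rises but only 3 falls reach 2.

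Neuropeptides that sensory neurons are known to make after injury had the highest median change of the lists. Of 9 tested members of this list, 7 rose, none fell, and all 7 calls held throughout. The median was 3.16, against 0.07 over all genes. Npy, neuropeptide Y, measured 8.21 and 2.84 FPKM after sham surgery and 245 and 164 FPKM after axotomy (log2 change 5.08 ± 0.38, limma adjusted p = 6.07e-05). Galanin, encoded by Gal and known to modulate pain signalling, measured 12.6 and 33.6 FPKM after sham surgery and 513 and 523 FPKM after axotomy (4.58 ± 0.39, limma adjusted p = 1.15e-04). Both SNI libraries lay far above both sham libraries for each, with WT sham 1 the higher sham library for Npy and WT sham 2 for Gal. Nts, the neurotensin precursor, measured 4.64 and 6.35 FPKM after sham surgery and 148 and 171 FPKM after axotomy (4.64 ± 0.23).

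Peptides of the corticotropin-releasing family rose from levels near 0. Ucn, urocortin, was listed at 0 in WT sham 1 and at 0.328 FPKM in WT sham 2 and measured 23.4 and 11.3 FPKM in WT SNI. Crh, corticotropin-releasing hormone, measured 0.152 and 1.14 FPKM after sham surgery and 13.5 and 12.5 FPKM after axotomy (3.16 ± 0.25). A smaller rise was found for Adcyap1, the precursor of the peptide PACAP, at 16.2 and 17.2 FPKM after sham surgery and 59.3 and 40.9 FPKM after axotomy (1.50 ± 0.17). Penk, the enkephalin precursor, rose likewise, at 4.97 and 3.76 FPKM (sham) and 12.5 and 8.98 FPKM (SNI) (1.12 ± 0.20). Sst, somatostatin, and Nppb, a peptide of itch neurons, did not pass, with changes of 0.24 and -0.40. The 12 listed members together made up 0.0296 and 0.0320% of the sham total and 0.344 and 0.305% of the SNI total. Vip, Cck and Nmu did not reach the filter on low values.

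Transcription factors of the AP-1 and ATF families, listed together with C/EBP factors such as Cebpb and Cebpd, were the next group. Of 16 tested, 10 rose and 1, Atf2, fell (-0.39, not throughout), and 7 rises held throughout. Rises numbered 4 without both WT sham 2 and WT SNI 2. Atf3, a stress-induced factor widely used to mark axotomized neurons, measured 2.71 and 7.26 FPKM after sham surgery and 178 and 147 FPKM after axotomy (log2 change 4.88 ± 0.30, limma adjusted p = 2.30e-05). Fosl1 and Fosl2, AP-1 partners of Jun, rose by 1.27 and 1.20, Fosl1 from 0.0663 and 0.110 to 1.46 and 1.81 FPKM. Jun itself measured 29.96 and 43.6 FPKM after sham surgery and 87.5 and 59.7 FPKM after axotomy, and its rise of 0.98 did not hold throughout. Cebpd, Batf3, Atf5 and Mafk rose by 1.14, 0.94, 0.76 and 0.72, and these calls held throughout. Fos, Junb, Jund and Cebpb did not pass (0.41, 0.03, 0.22 and 0.80).

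Among 21 other factors tied to axon growth, 9 rose, none fell, and 5 rises held throughout. Without WT sham 1, WT sham 2, WT SNI 1 or WT SNI 2 the count was 6, 5, 8 and 5, and without both WT sham 2 and WT SNI 2 it was 4. Sox11, a developmental factor of growing neurons, measured 1.90 and 2.35 FPKM after sham surgery and 22.2 and 19.7 FPKM after axotomy (2.81 ± 0.19). Klf6, a growth-promoting member of the Krüppel-like family, measured 11.2 and 12.5 FPKM after sham surgery and 34.8 and 30.9 FPKM after axotomy (1.40 ± 0.12). Nfil3, a repressor of cAMP-responsive genes, Smad1, an effector of BMP signalling, and Crem, a cAMP-responsive factor, rose by 1.34, 0.95 and 0.80. Several factors with a known part in regeneration did not pass at this time. Stat3 measured 54.7 and 61.7 FPKM after sham surgery and 51.9 and 40.8 FPKM after axotomy, and Myc 5.16 and 5.89 FPKM (sham) and 5.93 and 4.99 FPKM (SNI). Klf7 measured 34.1 and 36.3 FPKM (sham) and 32.9 and 29.7 FPKM (SNI), and Hif1a 18.7 and 19.2 FPKM (sham) and 16.8 and 19.9 FPKM (SNI). For Stat3 and Klf7 the SNI values were the lower ones (-0.33 and -0.17).

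Promoters were read from RefSeq (build GRCm38.p6, 250 bases before to 50 after each start) for 9885 of the 12884 tested genes. Motifs of the factor families above were searched on both strands, the AP-1 motif TGANTCA (N is any base) and the cAMP response element TGACGTCA, which do not overlap with each other, together with the TATA box TATAAA. The AP-1 motif was in 6.32% of genes with a promoter, in 8.93% of the 1322 that rose and 6.81% of the 911 that fell. It was in 10.3% of the 390 that rose by at least 1 on the log2 scale and in 17.5% of the 57 that rose by at least 2, subsets added after the values were seen. The cAMP response element was in 3.59% of all, 2.80% of those that rose and 2.96% of those that fell, and the TATA box in 8.74%, 10.9% and 7.46%. In the same subsets of larger rises, the TATA box was in 12.8 and 15.8% and the cAMP response element in 2.31 and 1.75%. Of the 127 that fell by at least 1, 7.09% held the AP-1 motif, 3.15% the cAMP response element and 9.45% the TATA box. Counted per promoter, 5.26% of 12699 held the AP-1 motif, 2.99% the cAMP response element and 7.20% the TATA box. A match is a description of letters, and no binding was measured. Of the 15 largest rises, 12 had a promoter in the table and 4 of these held an AP-1 or cAMP motif, and of the 15 largest falls 12 had a promoter and 1 held one. The following are shown because they belong to the largest rises and falls and carry a match, in capitals, read 5′ to 3′ along the gene's strand.
Sprr1a: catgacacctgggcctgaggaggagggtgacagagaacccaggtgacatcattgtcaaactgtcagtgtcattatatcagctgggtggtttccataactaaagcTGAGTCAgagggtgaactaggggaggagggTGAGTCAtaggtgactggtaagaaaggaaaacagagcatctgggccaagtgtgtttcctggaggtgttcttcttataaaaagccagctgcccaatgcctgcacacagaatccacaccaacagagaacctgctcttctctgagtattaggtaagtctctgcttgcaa
Nts: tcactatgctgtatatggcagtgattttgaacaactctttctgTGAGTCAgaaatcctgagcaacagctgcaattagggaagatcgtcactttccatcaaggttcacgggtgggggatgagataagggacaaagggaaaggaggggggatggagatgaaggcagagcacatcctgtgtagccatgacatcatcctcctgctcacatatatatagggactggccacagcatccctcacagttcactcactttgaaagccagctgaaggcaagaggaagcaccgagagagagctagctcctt
Ucn: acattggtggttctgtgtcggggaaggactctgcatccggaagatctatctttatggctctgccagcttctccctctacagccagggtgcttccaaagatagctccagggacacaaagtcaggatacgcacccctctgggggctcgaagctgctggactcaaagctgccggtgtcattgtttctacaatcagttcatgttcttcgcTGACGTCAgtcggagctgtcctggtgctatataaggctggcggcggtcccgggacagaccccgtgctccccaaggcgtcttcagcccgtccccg
Lipn: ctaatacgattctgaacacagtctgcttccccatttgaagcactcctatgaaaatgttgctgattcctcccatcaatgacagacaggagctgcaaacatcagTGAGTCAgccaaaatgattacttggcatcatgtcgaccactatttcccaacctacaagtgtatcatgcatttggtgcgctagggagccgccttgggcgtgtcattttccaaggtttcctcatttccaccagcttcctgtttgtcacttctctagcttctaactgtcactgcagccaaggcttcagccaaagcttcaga
Sstr2: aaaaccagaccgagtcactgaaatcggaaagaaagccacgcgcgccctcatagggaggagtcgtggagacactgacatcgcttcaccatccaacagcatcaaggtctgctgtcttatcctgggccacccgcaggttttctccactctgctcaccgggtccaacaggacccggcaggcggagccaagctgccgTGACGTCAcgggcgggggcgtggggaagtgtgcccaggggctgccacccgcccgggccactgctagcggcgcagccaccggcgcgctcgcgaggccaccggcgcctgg
The Sprr1a promoter (chr3:92485832-92486131, minus strand) held 2 AP-1 motifs, starting 146 and 116 bases before the start, and that of Nts (chr10:102490369-102490668, minus strand) held 1, 207 bases before. The Ucn promoter (chr5:31138846-31139145, minus strand) held a cAMP response element 44 bases before the start, and that of Lipn, a lipase (chr19:34067108-34067407, plus strand), an AP-1 motif 148 bases before. The cAMP element also stood 58 bases before the start of Sstr2 (chr11:113619077-113619376, plus strand), which fell, so the 8 letters were found in a gene of either direction.

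Effectors of axon growth held the largest change of all. Of 43 tested, 23 rose, 18 of them throughout, and 1, Ngfr, fell. The median was 0.72. Sprr1a, a small proline-rich protein known to be induced in injured neurons, measured 3.34 and 21.9 FPKM after sham surgery and 1074 and 744 FPKM after axotomy (log2 change 6.49 ± 0.66, limma adjusted p = 3.23e-04). WT sham 2 was the higher sham library and lay far below both SNI libraries. Gap43, a classic growth cone protein, measured 109.8 and 131 FPKM after sham surgery and 498 and 487 FPKM after axotomy (2.03 ± 0.16), and both libraries of each group lay close together.

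Receptors, enzymes and signals in this group started near 0. Gpr151, an orphan receptor of sensory neurons, measured 0.599 and 2.19 FPKM after sham surgery and 70.97 and 69.7 FPKM after axotomy (4.98 ± 0.31), Cckbr, the cholecystokinin B receptor, 0.359 and 0.523 FPKM (sham) and 21.5 and 16.1 FPKM (SNI) (3.77 ± 0.17), and Ecel1, an endopeptidase of injured neurons, 0.268 and 1.14 FPKM (sham) and 23.5 and 23.4 FPKM (SNI) (3.89 ± 0.24). Fgf3, a fibroblast growth factor, rose from 0.0211 and 0.168 to 11.5 and 8.79 FPKM. The cell adhesion molecules Flrt3 and Chl1 rose as well, Flrt3 from 4.43 and 4.83 to 43.5 and 46.5 FPKM and Chl1 from 6.59 and 6.34 to 29.2 and 30.8 FPKM. Tnfrsf12a, a receptor linked to neurite growth, and Plaur, the urokinase receptor, rose by 2.47 and 1.91, and all of these calls held throughout.

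Cytoskeletal members rose in part. Stmn4, a stathmin that binds tubulin, measured 7.42 and 8.28 FPKM after sham surgery and 83.9 and 86.1 FPKM after axotomy (3.28 ± 0.13, limma adjusted p = 2.03e-06). The beta-tubulin Tubb6 measured 5.58 and 7.23 FPKM after sham surgery and 66.2 and 59.7 FPKM after axotomy (3.12 ± 0.20), and Tubb2b measured 176 and 161 FPKM after sham surgery and 370.2 and 379.9 FPKM after axotomy (1.15 ± 0.19). The abundant isotypes Tuba1a and Tubb3, and Stmn2, had higher values in both SNI libraries but did not pass: Tubb3 measured 1348 and 1385 FPKM after sham surgery and 2085 and 1669 FPKM after axotomy (0.45), and Stmn2 909.9 and 912 FPKM (sham) and 1461 and 1252 FPKM (SNI) (0.57). Marcksl1 and Marcks, substrates of protein kinase C at the membrane skeleton, rose by 1.85 and 1.03. Several proteins of the growth cone did not pass, among them Dpysl2 (-0.52), Dpysl3 (-0.23), L1cam (-0.47) and Cd44 (0.08). Ngfr, the low-affinity neurotrophin receptor, fell by 1.00, from 111 and 148 to 75.4 and 53.4 FPKM, but not throughout. Summed over the list, FPKM made up 2.25 and 2.31% of the sham total and 3.77 and 3.16% of the SNI total.

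**Figure D3:**
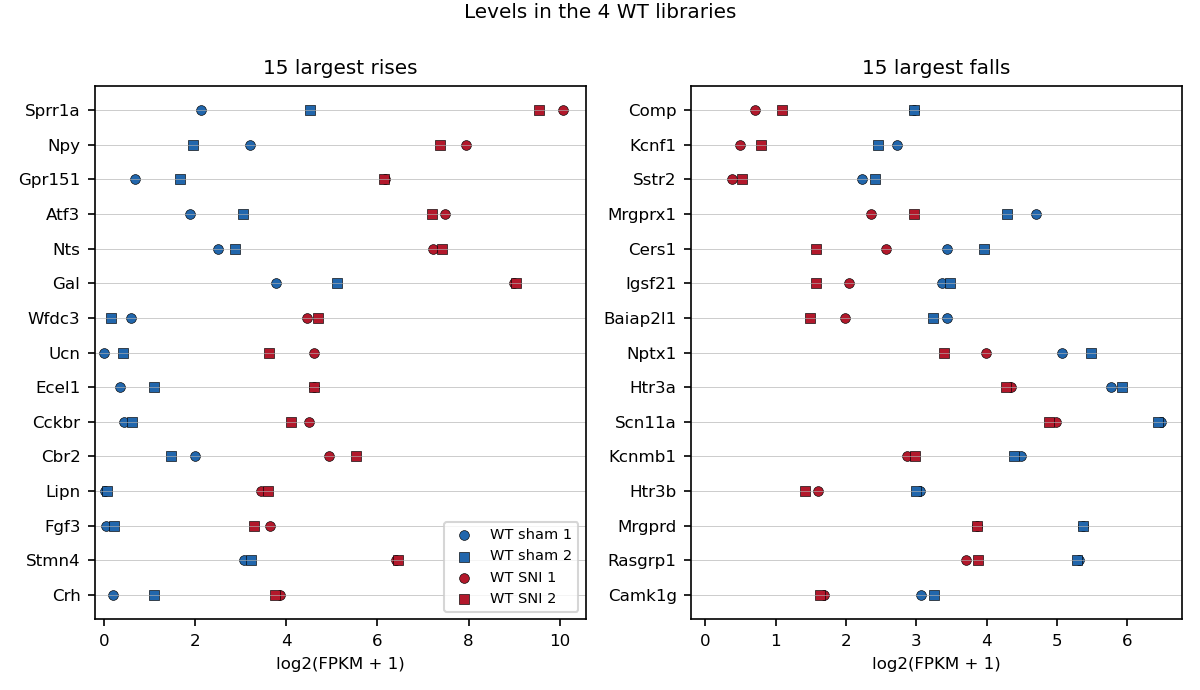
Log2(FPKM + 1) in the 4 WT libraries (horizontal axes, starting at 0) for the 15 called genes with the largest rise and the 15 with the largest fall, all without overlap between groups. Blue is sham and red is SNI, circles are replicate 1 and squares replicate 2. The widest gap is that of Sprr1a, and the falls span smaller gaps.

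The remaining genes among the 15 largest rises lay outside these lists. Wfdc3, a WAP domain protein, measured 0.498 and 0.112 FPKM after sham surgery and 20.9 and 24.8 FPKM after axotomy (4.20 ± 0.21), Lipn 0.0176 and 0.0510 FPKM (sham) and 9.82 and 11.05 FPKM (SNI) (3.46 ± 0.15), and Cbr2, a carbonyl reductase, 3.01 and 1.76 FPKM (sham) and 29.6 and 45.4 FPKM (SNI) (3.50 ± 0.28). All 15 of the largest rises held throughout. By gain in mean FPKM, which favours abundant transcripts, the first 10 were Sprr1a, Apod, Rpl35, Rpl41, S100a10, S100a11, Gal, B2m, Gap43 and Rps26. Of these Apod, a lipid carrier made by glia and fibroblasts, measured 519.6 and 333 FPKM after sham surgery and 1059.8 and 1430.0 FPKM after axotomy (1.56 ± 0.28), and S100a11, a calcium-binding protein, 189 and 214 FPKM (sham) and 804 and 781 FPKM (SNI) (1.97 ± 0.18). The calls of Rpl35, Rpl41, Rps26, S100a10 and B2m did not hold throughout.

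Genes of the p53 pathway and of neuronal death rose in part. Of 32 tested, 15 rose, 8 throughout, and 3, Nmnat2, Map3k12 and Bid, fell, with a median of 0.34. The count of rises was 8 without WT sham 1, 9 without WT sham 2 and 7 without both WT sham 2 and WT SNI 2. Gadd45a, a growth arrest gene that is also on the list of effectors, measured 18.9 and 18.3 FPKM after sham surgery and 139.9 and 93.9 FPKM after axotomy (2.56 ± 0.18), and Cdkn1a, the cell cycle inhibitor p21, 44.98 and 39.9 FPKM (sham) and 164 and 136 FPKM (SNI) (1.80 ± 0.16). Hrk and Pmaip1, BH3-only proteins that promote apoptosis, rose by 1.20 and 1.09, both throughout. Their relative Bbc3, and Bax and Trp53 themselves, did not pass (0.13, 0.31 and 0.20). Nmnat2, an enzyme that keeps axons intact, and Map3k12, the injury kinase DLK, fell by 0.57 and 0.45, but not throughout, while Sarm1, which executes axon loss, did not pass (-0.10).

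Stress responses rose in part. Of 33 tested genes of the unfolded protein and integrated stress responses, 17 rose, 6 throughout, and none fell, with a median of 0.53. Rises numbered 8 without WT sham 1, 7 without WT sham 2, 10 without WT SNI 1, 10 without WT SNI 2 and 4 without both WT sham 2 and WT SNI 2. Chac1, a glutathione-degrading target of Atf4, measured 2.42 and 3.16 FPKM after sham surgery and 14.9 and 11.6 FPKM after axotomy (1.91 ± 0.19). Ddit3, Mthfd2 and Psat1, also targets of that pathway, rose by 0.79, 1.14 and 1.03, and Sdf2l1, a chaperone partner of the endoplasmic reticulum, by 1.22, all throughout. The chaperones Hspa5 and Hsp90b1 did not pass (0.50 and 0.28). Among 26 heat shock and oxidative stress genes, 3 rose and 2 fell, near the share over all genes. The 3 were Srxn1, which reduces oxidized peroxiredoxins, at 98.3 and 104 FPKM after sham surgery and 339 and 277 FPKM after axotomy (1.59 ± 0.16), Mt2, a metallothionein, at 42.2 and 35.4 FPKM (sham) and 113 and 76.5 FPKM (SNI) (1.24 ± 0.23), and Hspb1, a small heat shock protein, which rose by 0.91. The rise of Hspb1 and the falls of Hsph1, a chaperone, and Gclm, of glutathione synthesis, did not hold throughout: falls numbered 0 without WT sham 1, 0 without WT sham 2, 1 without WT SNI 1, 0 without WT SNI 2 and 0 without both WT sham 2 and WT SNI 2.

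Immediate early genes and polyamine genes were called more often (52.9% and 30.8%) than the 23% over all genes. Tetrahydrobiopterin and nitric oxide genes lay near that share, at 20%. Of 17 immediate early genes 8 rose, 2 of them, Btg2 (1.55) and Zfp36 (0.97), throughout, and the count was 3 without WT sham 1, 4 without WT sham 2, 4 without WT SNI 1, 5 without WT SNI 2, 2 without both WT sham 2 and WT SNI 2 and 4 after quantile normalization. Among the immediate early genes 1 fell, not throughout. Of 13 arginase and polyamine genes, 3 rose and 1 fell. Odc1, the first enzyme of polyamine synthesis, measured 21.4 and 23.7 FPKM after sham surgery and 73.9 and 68.2 FPKM after axotomy (1.61 ± 0.26), and Arg2, a mitochondrial arginase, rose by 0.81. Ass1, which makes the precursor of arginine, fell by 1.07, from 34.7 and 41.3 to 17.7 and 17.3 FPKM. These 3 calls held throughout, and that of Smox (0.64) did not, and rises numbered 0 without both WT sham 2 and WT SNI 2. Among 10 genes of tetrahydrobiopterin and nitric oxide synthesis, 2 fell, Th (-1.29) and Nos1 (-0.70), neither throughout (falls numbered 0 without WT sham 1, 0 without WT sham 2, 1 without WT SNI 1, 0 without WT SNI 2, 0 without both WT sham 2 and WT SNI 2 and 1 after quantile normalization), and Gch1, the first enzyme of that pathway, measured 1.42 and 2.03 FPKM after sham surgery and 2.02 and 4.34 FPKM after axotomy without passing.

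**Figure D4:**
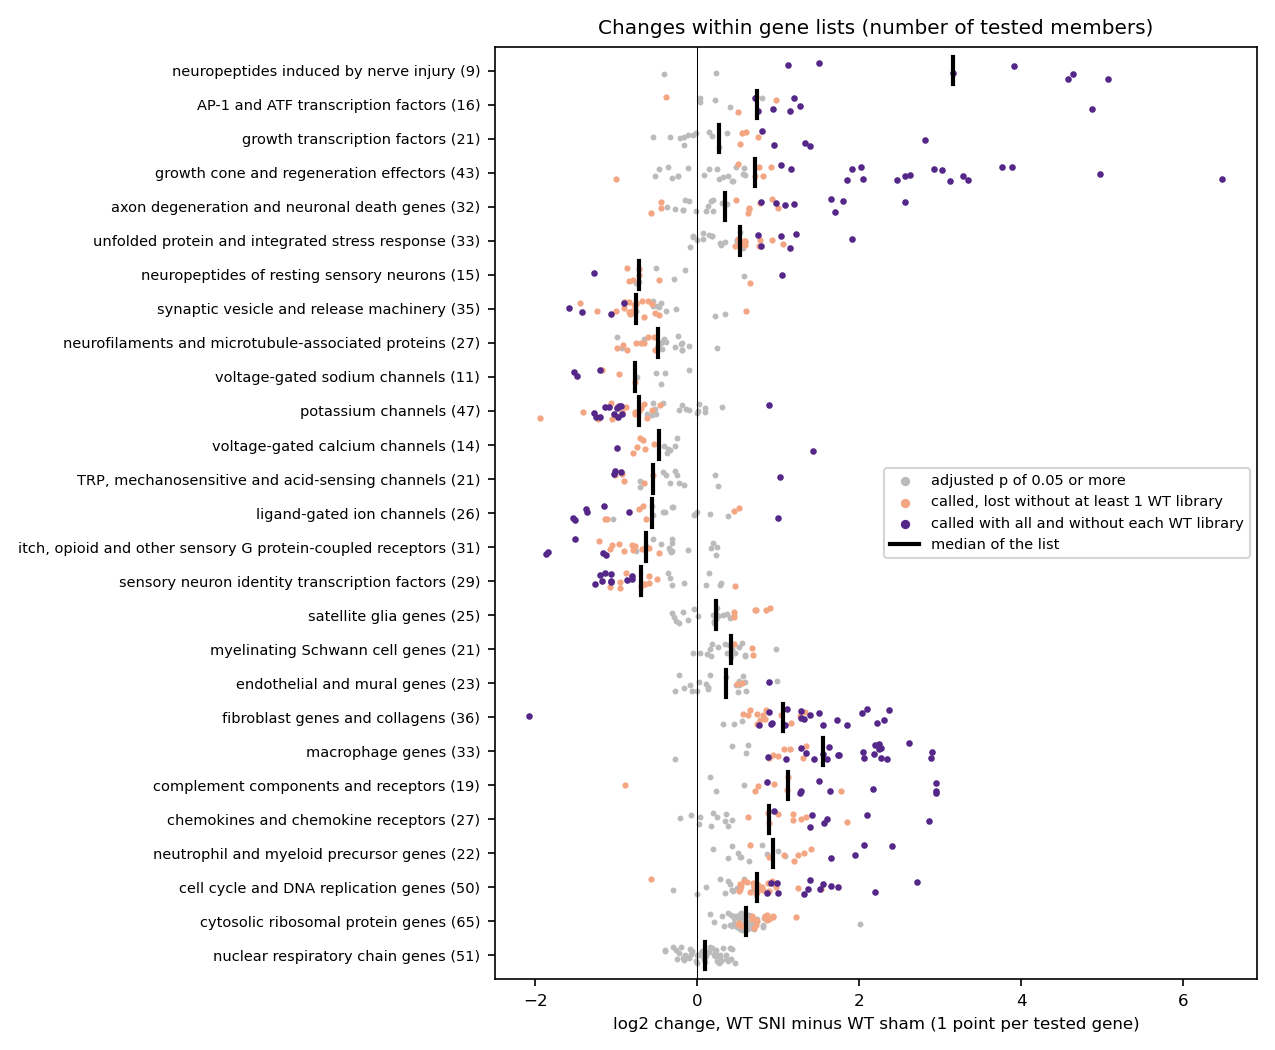
Log2 change of each tested member (1 point per gene) in 27 gene lists, with the number of tested members in brackets and the list's median as a black bar. Purple points are calls that held throughout, orange points other calls and grey points genes not called. Injury peptides reach 5.08 with a median of 3.16, the medians of the channel, receptor and identity factor lists lie to the left of 0 and those of the macrophage, complement and matrix lists to the right, with single genes of most of these lists on the other side.

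Peptides of resting sensory neurons fell in part. Of 15 tested peptides and peptide-processing genes, 7 fell and 2 rose, with a median of -0.72. Tac1, the precursor of substance P, measured 189 and 163 FPKM after sham surgery and 62.98 and 82.7 FPKM after axotomy and fell by 1.27 ± 0.17, throughout. The other falls, Calcb, Pcsk2, Chgb, Scg2, Nmb and Cpe (from -0.87 for Calcb to -0.48 for Cpe), did not hold throughout, and the count was 1 without WT sham 1, 3 without WT sham 2, 3 without WT SNI 2 and 1 without both WT sham 2 and WT SNI 2. Calca, the precursor of the peptide CGRP, measured 144 and 149 FPKM after sham surgery and 92.1 and 116 FPKM after axotomy and did not pass. Grp, gastrin-releasing peptide, rose throughout from 0.0450 and 0.0450 to 1.05 and 1.27 FPKM, and Adm, adrenomedullin, rose by 0.65, not throughout. The list's sum went from 0.354 and 0.373% of the sham total to 0.223 and 0.210% of the SNI total.

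Genes of synaptic vesicles and transmitter release fell in part. Of 35 tested, 23 fell, 4 throughout, and 1, Syt4, rose by 0.61, with a median of -0.75. Falls numbered 11 without WT sham 1, 6 without WT sham 2, 7 without WT SNI 2 and 0 without both WT sham 2 and WT SNI 2. The 4 that held were Nptx1, a pentraxin of synapses, at 32.5 and 43.8 FPKM after sham surgery and 14.9 and 9.56 FPKM after axotomy (-1.58 ± 0.25), the Rab3 effector Rph3a (-1.42), the complexin Cplx2 (-1.06) and the calcium sensor Syt7 (-0.90). The vesicle proteins Syp and Vamp2 and the glutamate transporter Slc17a6 did not pass (-0.47, -0.26 and 0.22), and Slc17a6 was higher in both SNI libraries.

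Neurofilaments and microtubule-associated proteins gave 9 falls among 27 tested, none of them throughout, and no rise, with a median of -0.48. The number of falls was 4 without WT sham 1, 0 without WT sham 2, 0 without WT SNI 2, 0 without both WT sham 2 and WT SNI 2 and 14 after quantile normalization. The neurofilament chains of large axons had lower values in both SNI libraries, Nefh at 465 and 608 FPKM after sham surgery and 359 and 199 FPKM after axotomy, but none of Nefl, Nefm and Nefh passed (-0.66, -0.93 and -0.99). The microtubule proteins Map1b, Map1a and Mapt fell by 0.99, 0.91 and 0.52, and the motor Kif5a by 0.76. Prph, the peripherin of small neurons, measured 695 and 693 FPKM after sham surgery and 530.0 and 508 FPKM after axotomy and did not pass.

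Sodium channels fell in part. Of 11 tested, 6 fell, 3 throughout, none rose and 5 did not pass, with a median of -0.76, and falls numbered 3 without WT sham 2 and 3 without both WT sham 2 and WT SNI 2. Scn10a and Scn11a, the nociceptor channels Nav1.8 and Nav1.9, measured 126 and 134 FPKM after sham surgery and 47.5 and 44.6 FPKM after axotomy (-1.48 ± 0.18) and, for the second, 87.98 and 85.8 FPKM after sham surgery and 30.8 and 28.6 FPKM after axotomy (-1.52 ± 0.21). Scn1a, the channel Nav1.1, went from 14.6 and 15.7 to 6.29 and 5.78 FPKM. These 3 held throughout, and the 2 libraries of each group lay close together. Scn9a, the channel Nav1.7, measured 37.8 and 36.7 FPKM (sham) and 24.2 and 27.9 FPKM (SNI) and did not pass (-0.50), and Scn3a, known to return after injury, did not reach the filter on low values. The list's sum made up 0.183 and 0.208% of the sham total and 0.0995 and 0.0813% of the SNI total.

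Potassium channels gave 29 falls and 1 rise among 47 tested, with 11 falls and the rise throughout and a median of -0.72. Falls numbered 18 without WT sham 1, 14 without WT sham 2, 13 without WT SNI 2 and 3 without both WT sham 2 and WT SNI 2. Kcnd1 and Kcnd3, which carry A-type currents, fell, Kcnd1 from 50.6 and 53.8 to 23.1 and 21.1 FPKM and Kcnd3 from 16.3 and 15.2 to 6.79 and 6.42 FPKM. Kcna2, of the juxtaparanode, fell by 0.94 and Kcnt1, a sodium-activated channel, by 1.03. Kcnf1, a modifier subunit, had the largest fall of the family (-1.94 ± 0.45, from 5.61 and 4.47 to 0.412 and 0.739 FPKM), but not throughout. The rise was Kcnmb4, an auxiliary subunit of calcium-activated BK channels, at 4.84 and 4.89 FPKM after sham surgery and 10.7 and 9.03 FPKM after axotomy (0.88 ± 0.13), while another such subunit, Kcnmb1, fell throughout from 21.5 and 20.03 to 6.31 and 6.94 FPKM. The pore gene of that channel, Kcnma1, measured 3.58 and 4.17 FPKM (sham) and 3.79 and 3.99 FPKM (SNI) and did not pass, and neither did the M-current gene Kcnq3 (-0.14).

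Calcium channel genes fell more often than they rose. Of 14 tested, 7 fell and 1 rose, and Cacna2d1 was the rise: this alpha2delta subunit, the target of gabapentin, measured 19.6 and 22.1 FPKM after sham surgery and 58.1 and 57.7 FPKM after axotomy (1.43 ± 0.19, limma adjusted p = 0.00106). Its relative Cacna2d2 fell by 0.99, from 6.52 and 7.44 to 2.96 and 3.08 FPKM, and both calls held throughout. The other falls (Cacnb3, Cacnb4, Cacna1h, Cacna2d3, Cacng2 and Cacng5) did not, and the number of falls was 3 without WT sham 1, 1 without WT sham 2, 2 without WT SNI 2 and 0 without both WT sham 2 and WT SNI 2. The main pore genes of release, Cacna1a and Cacna1b, did not pass (-0.27 and -0.25).

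Sensory transduction channels fell in part. Of 21 tested TRP, mechanosensitive and acid-sensing channels and their partners, 9 fell, 3 throughout, and 1 rose, and the number of falls was 4 without WT sham 1, 4 without WT sham 2, 5 without WT SNI 1 and 1 without both WT sham 2 and WT SNI 2. Piezo2, the channel of light touch, measured 30.7 and 33.1 FPKM after sham surgery and 15.8 and 14.5 FPKM after axotomy (-1.03 ± 0.12), and Asic2 22.3 and 21.3 FPKM (sham) and 12.3 and 9.67 FPKM (SNI). Trpa1, a receptor of irritants, fell by 1.02, not throughout. Trpv1, the capsaicin receptor, and Trpm8, the cold receptor, had lower values in both SNI libraries without passing (-0.70 and -0.71). Stom, a membrane protein that modulates such channels, rose from 14.7 and 13.2 to 26.2 and 32.9 FPKM.

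Ligand-gated channels gave 11 falls, 6 throughout, and 3 rises among 26 tested, and the number of rises was 1 without WT sham 1, 1 without WT sham 2, 1 without WT SNI 2 and 0 without both WT sham 2 and WT SNI 2, and that of falls 7 without WT sham 2 and 2 without both WT sham 2 and WT SNI 2. The serotonin-gated channel subunits Htr3a and Htr3b fell, Htr3a from 53.6 and 59.99 to 19.3 and 18.4 FPKM and Htr3b from 7.30 and 6.95 to 2.03 and 1.67 FPKM. The glutamate receptor subunits Grik1 (-1.37), Grin1 (-1.15) and Gria4 (-0.84) and the nicotinic receptor subunit Chrna7 (-1.36) fell, all throughout. Gabrg1, a subunit of GABA receptors, rose throughout (2.94 and 2.26 to 6.06 and 6.30 FPKM). P2rx3, the ATP-gated channel of nociceptors, measured 56.1 and 55.05 FPKM after sham surgery and 76.9 and 83.7 FPKM after axotomy, and its rise of 0.52 did not hold throughout.

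G protein-coupled receptors of itch and pain neurons gave 16 falls and no rise among 31 tested, 5 of them throughout, with a median of -0.63. The number of falls was 7 without WT sham 1, 9 without WT sham 2, 10 without WT SNI 2 and 7 without both WT sham 2 and WT SNI 2. Sstr2, a somatostatin receptor, measured 3.67 and 4.32 FPKM after sham surgery and 0.306 and 0.430 FPKM after axotomy (-1.87 ± 0.14). The Mas-related receptors Mrgprx1 and Mrgprd, which mark itch and nonpeptidergic nociceptors, fell, Mrgprx1 from 25.1 and 18.5 to 4.11 and 6.80 FPKM and Mrgprd from 40.6 and 40.5 to 13.6 and 13.6 FPKM. Oprd1, the delta opioid receptor, and Lpar5 fell by 1.16 and 1.12. Npy1r and Npy2r, receptors of the induced peptide neuropeptide Y, did not pass (-0.31 and 0.20), nor did the cannabinoid receptor Cnr1 (-0.32). Galr1, Galr2 and Oprm1 did not reach the filter on low values.

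Transcription factors that set sensory neuron identity gave 20 falls and 1 rise among 29 tested, 10 falls throughout, with a median of -0.69. Falls numbered 12 without WT sham 2, 13 without WT SNI 2 and 4 without both WT sham 2 and WT SNI 2. Isl2 measured 83.4 and 79.8 FPKM after sham surgery and 33.4 and 33.4 FPKM after axotomy (-1.27 ± 0.15), Prdm12, required for nociceptors, 30.4 and 33.4 FPKM (sham) and 14.2 and 12.5 FPKM (SNI) (-1.20 ± 0.18), and Prrxl1, known as DRG11, had a change of -1.06 ± 0.17. Pou4f1 and Tlx3 fell by 0.86 and 0.80, and Isl1 by 0.69, the last not throughout. The rise was Maf (0.47), which macrophages also express and which did not hold throughout.

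Neurotrophic receptors and ligands moved in both directions: of 20 tested, 6 rose and 4 fell, and the number of rises was 3 without WT sham 1, 3 without WT sham 2 and 2 without both WT sham 2 and WT SNI 2. Among the GDNF family co-receptors, Gfra2 measured 26.6 and 27.3 FPKM after sham surgery and 10.8 and 10.04 FPKM after axotomy (-1.29 ± 0.19) and Gfra3 25.6 and 27.1 FPKM (sham) and 46.8 and 46.7 FPKM (SNI) (0.80 ± 0.13), both throughout. Gfra1 rose by 0.81, from 27.3 and 30.2 to 64.2 and 40.8 FPKM, not throughout. Their shared kinase Ret did not pass (-0.35). The ligand Igf1 rose throughout, from 0.779 and 0.817 to 3.19 and 4.31 FPKM. Bdnf measured 6.55 and 7.94 FPKM after sham surgery and 5.66 and 6.31 FPKM after axotomy and did not pass. The number of falls was 1 without WT sham 2, 1 without WT SNI 2 and 0 without both WT sham 2 and WT SNI 2.

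Axon guidance genes gave 4 rises and 12 falls among 43 tested, 37.2% called against 23% over all genes. The rises were a smaller share than the 13.6% over all genes, and the falls a larger one than the 9.38%. Sema6a, a membrane-bound semaphorin, measured 1.24 and 1.73 FPKM after sham surgery and 17.3 and 10.3 FPKM after axotomy (2.54 ± 0.21), and Sema3c, a secreted one, 3.76 and 3.34 FPKM (sham) and 8.86 and 12.3 FPKM (SNI) (1.33 ± 0.17). Falls that held throughout were those of Robo2, a Slit receptor (-0.91), Plxnc1, a semaphorin receptor (-0.95), and Rtn4rl1, a Nogo receptor homologue (-1.09). The number of rises was 2 without WT sham 1 and 2 without both WT sham 2 and WT SNI 2, and that of falls 6 without WT sham 1, 4 without WT sham 2, 5 without WT SNI 2 and 0 without both WT sham 2 and WT SNI 2.

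By level, the 10 largest losses of mean FPKM among called genes included those of Fxyd2, Fstl1, Tmem233, Spock2, Map1b, Tusc5, Trnp1, Nrn1 and Tac1. Fxyd2, a small membrane protein that modulates ion transport, measured 1159 and 818 FPKM after sham surgery and 591 and 568 FPKM after axotomy. Nrn1, neuritin, measured 245 and 224 FPKM (sham) and 113 and 120.4 FPKM (SNI), and Tmem233 365 and 327 FPKM (sham) and 121 and 136 FPKM (SNI). Calls of Tmem233, Tusc5, Nrn1 and Tac1 held throughout, and those of Fxyd2, Fstl1, Spock2, Map1b and Trnp1 did not. Of the 15 largest falls, all but Kcnf1 and Cers1 held throughout. Comp, a matrix protein, measured 6.79 and 6.81 FPKM after sham surgery and 0.627 and 1.12 FPKM after axotomy (-2.07 ± 0.19). Igsf21 (-1.62), Baiap2l1 (-1.60), Rasgrp1 (-1.50) and Camk1g (-1.50) completed these with the channels and receptors above.

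**Figure D5:**
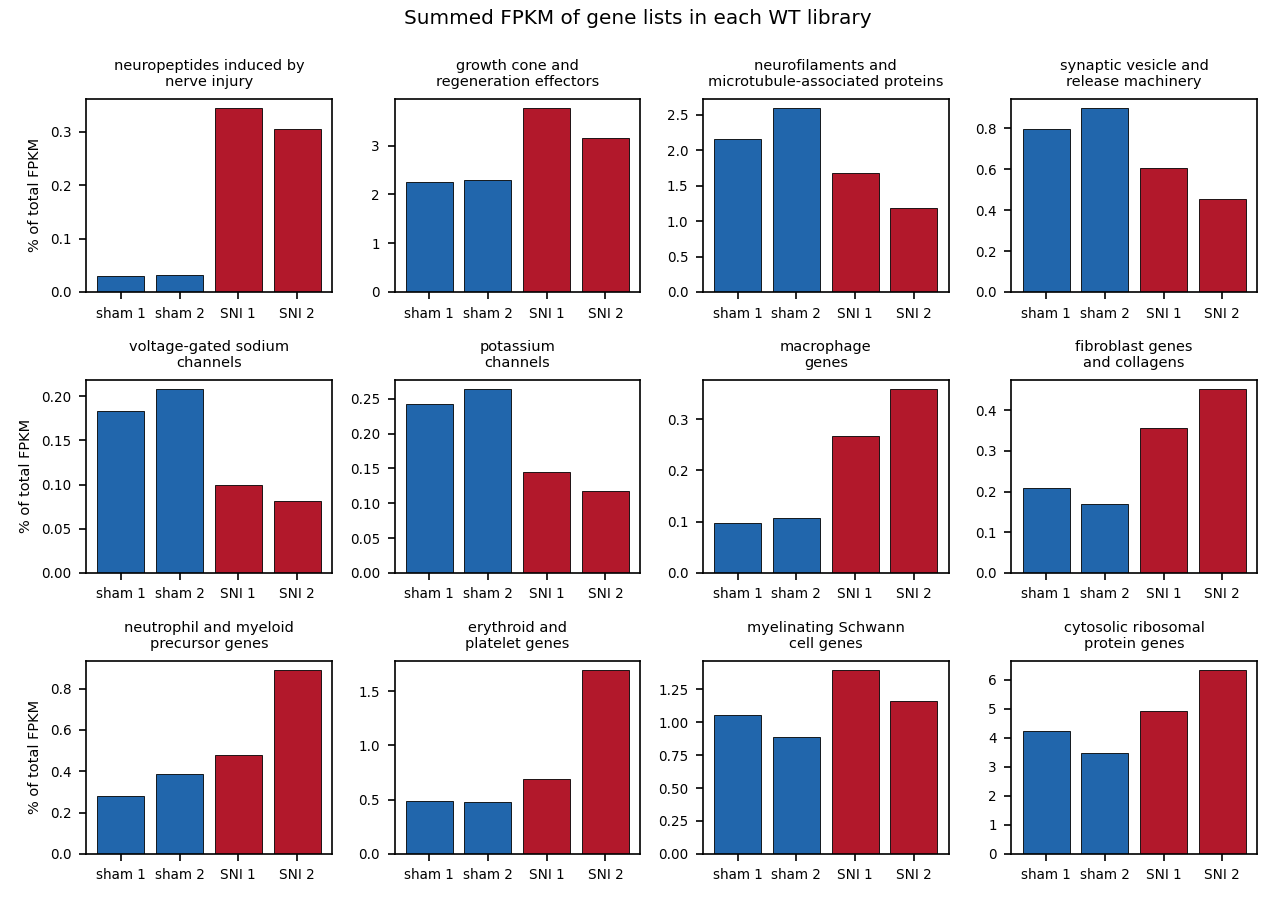
Summed FPKM of 12 gene lists as a percentage of the library's total FPKM (vertical axes, starting at 0), 1 bar for each WT library, blue for sham and red for SNI. The injury peptides went from about 0.03% to above 0.3%, channel lists and neurofilaments were lower in both SNI libraries, and the neutrophil, erythroid and ribosomal sums were highest in WT SNI 2.

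Satellite glia and myelin genes gave no call that held throughout. Of 25 tested satellite glia genes 6 rose, none throughout, with a median of 0.24, and the number of rises was 2 without WT sham 1, 0 without WT sham 2, 3 without WT SNI 1, 1 without WT SNI 2, 0 without both WT sham 2 and WT SNI 2, 3 with libraries centred on their medians and 3 after quantile normalization. Gfap, an intermediate filament of reactive glia, measured 0.284 and 0.382 FPKM after sham surgery and 1.52 and 1.46 FPKM after axotomy (0.90 ± 0.27), not throughout. Glul, glutamine synthetase, and Dbi rose by 0.72 and 0.85. The markers Fabp7, Kcnj10 and Gja1 did not pass (0.37, -0.12 and 0.23). Of 21 myelin genes, 3 rose, among them Ugt8a and Ncmap, none throughout. The number of myelin calls was 0 without WT sham 2, 1 without WT SNI 1, 0 without WT SNI 2 and 0 without both WT sham 2 and WT SNI 2. Among 13 genes of repair Schwann cells, which include Gap43, Jun and Ngfr of the lists above, 5 rose and 2 fell, and Tgfb1 rose throughout (1.21) and Nrg1, whose product is a signal from axons to Schwann cells, fell throughout (-0.85). Rises in this list numbered 2 without WT sham 1, 3 without WT sham 2, 3 without WT SNI 2 and 3 without both WT sham 2 and WT SNI 2, and falls 1 without WT sham 2, 1 without WT SNI 2 and 0 without both WT sham 2 and WT SNI 2. Of 23 endothelial and mural genes 3 rose, Slc2a1 (0.89) throughout, and Pecam1 and Cdh5 by 0.55 and 0.49 but not throughout, and calls numbered 1 without WT sham 1, 7 without WT SNI 1, 1 without WT SNI 2, 1 without both WT sham 2 and WT SNI 2 and 1 after quantile normalization.

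Most fibroblast and matrix genes rose in WT. Of 36 tested, 32 rose, 19 throughout, and 1, Comp, fell, with a median of 1.06. Rises numbered 19 without WT sham 2, 21 without WT SNI 2 and 10 without both WT sham 2 and WT SNI 2. The fibrillar collagens Col3a1 and Col1a1 rose from 13.5 and 11.5 to 57.2 and 75.3 FPKM and from 8.92 and 7.09 to 33.3 and 41.8 FPKM. Loxl2, a collagen crosslinking enzyme, measured 0.450 and 0.668 FPKM after sham surgery and 7.88 and 6.22 FPKM after axotomy (2.36 ± 0.15), and Mfap4, a microfibril protein, 0.599 and 1.41 FPKM (sham) and 6.05 and 10.9 FPKM (SNI) (2.22 ± 0.28). Eln, elastin, measured 0.542 and 0.765 FPKM after sham surgery and 5.59 and 5.98 FPKM after axotomy (2.04 ± 0.18). The proteoglycans Lum and Dcn rose by 1.85 and 1.34, with WT SNI 2 the highest library for both, and the call of Dcn did not hold throughout. The list's sum was 0.209 and 0.170% of the sham total, 0.357 and 0.452% in WT SNI and 0.302 and 0.358% in dKO sham. In dKO SNI, which held Y-linked transcripts, it was 0.494 and 0.572%. There, 19 members were called higher and 1 lower than in dKO sham. The dKO sham libraries, which had no nerve injury and, as WT SNI, lacked Y-linked transcripts, thus lay above WT sham. The part of that difference in the rise was not tested.

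Most macrophage genes rose. Of 33 tested, 29 rose, 22 throughout, and none fell, with a median of 1.55, and without both WT sham 2 and WT SNI 2 the number was 18. Adgre1 and Csf1r, the marker F4/80 and the receptor of colony-stimulating factor 1, rose from 0.830 and 0.931 to 7.18 and 8.73 FPKM and from 4.14 and 2.83 to 18.4 and 20.1 FPKM. Cd68, a lysosomal marker, measured 2.61 and 1.75 FPKM after sham surgery and 20.6 and 16.2 FPKM after axotomy (2.62 ± 0.18), and Mrc1, the mannose receptor, 2.01 and 1.77 FPKM (sham) and 19.01 and 22.03 FPKM (SNI) (2.89 ± 0.14). F13a1, Cd163, Folr2 and Lyve1, genes of resident tissue macrophages, rose by 2.90, 2.19, 2.27 and 1.45, and Ly6c2 and Ccr2, genes of monocytes, by 1.35 and 1.00. All but Ccr2 of those named held throughout. Spp1 and Gpnmb did not pass (0.43 and -0.27). The list's sum was 0.0980 and 0.108% of the sham total and 0.267 and 0.359% of the SNI total.

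Most complement genes rose as well. Of 19 tested components and receptors, 15 rose, 9 throughout, and 1 fell, with a median of 1.12, and without both WT sham 2 and WT SNI 2 the number of rises was 8. The chains of C1q, which macrophages make, rose alike: C1qa measured 15.8 and 10.4 FPKM after sham surgery and 109 and 102 FPKM after axotomy, and the changes of C1qa, C1qb and C1qc were 2.94, 2.95 and 2.95. The receptors C3ar1 and C5ar1 rose by 1.65 and 1.28, both throughout, and Cfp, properdin, by 2.17. Cd55, an inhibitor that sensory neurons express, fell from 50.8 and 43.8 to 23.4 and 26.9 FPKM, not throughout.

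Cytokine genes rose in part. Of 20 genes on the list of CSF1 and gp130 cytokines and their receptors, which also holds Il24, Csf2ra and Csf2rb, 8 rose, 4 throughout. Csf1, which injured neurons are known to make and macrophages respond to, measured 3.36 and 4.13 FPKM after sham surgery and 33.1 and 21.4 FPKM after axotomy (2.55 ± 0.19, limma adjusted p = 6.07e-05), and its receptor Csf1r is given above. Il24, a cytokine of the same class as interleukin 10, was at 0 in each sham library and at 2.07 and 2.84 FPKM after axotomy. Il6 measured 0.0958 and 0.321 FPKM after sham surgery and 1.12 and 0.537 FPKM after axotomy without passing, Lif did not reach the filter, and the receptors Il6st and Lifr did not pass (-0.08 and -0.12). The number of calls was 5 without WT sham 1, 4 without WT sham 2, 4 without WT SNI 2 and 4 without both WT sham 2 and WT SNI 2. Of 19 interleukin 1 and TNF family genes, 6 rose, Tnfrsf1b (1.19), Pycard (1.15) and Il1r1 (1.10) throughout. Il1b did not reach the filter, and Tnf measured 0.160 and 0.105 FPKM after sham surgery and 0.324 and 0.685 FPKM after axotomy without passing. The count was 3 without WT sham 1, 3 without WT sham 2, 3 without WT SNI 2 and 1 without both WT sham 2 and WT SNI 2.

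Of 27 chemokines and receptors, 16 rose, 7 throughout, and none fell. Pf4, made by platelets and macrophages, measured 8.92 and 2.51 FPKM after sham surgery and 35.7 and 49.5 FPKM after axotomy (2.87 ± 0.38), and Ccl9 0.691 and 0.604 FPKM (sham) and 5.72 and 6.46 FPKM (SNI) (2.10 ± 0.18). Ccl2, the monocyte attractant, rose by 0.88 to 2.86 and 3.18 FPKM and its receptor Ccr2 by 1.00, neither throughout. Cx3cr1, the fractalkine receptor of macrophages, rose throughout (1.60), and its ligand Cx3cl1 did not pass (0.03). The count was 8 without WT sham 2, 8 without WT SNI 2 and 5 without both WT sham 2 and WT SNI 2. Of 9 class II genes 5 rose, Ctss, which trims the invariant chain, throughout (5.67 and 3.94 FPKM after sham surgery and 31.4 and 36.6 FPKM after axotomy), and H2-Ab1 throughout (0.93). Class II calls numbered 3 without WT sham 1, 2 without WT SNI 2 and 3 without both WT sham 2 and WT SNI 2. Of 38 class I and interferon-stimulated genes 3 rose, a smaller share than over all genes: Oas2 (1.18) throughout, and H2-K1 (1.17) and B2m (0.98). These calls numbered 1 without WT sham 1 and 1 without WT SNI 1. Ifit1 did not pass (0.17). The median of these 38 genes was 0.45, against 0.07 over all genes. A change above 0 was found in 31 of them, and in 56.6% of all genes. Their sum was 0.370 and 0.308% of the sham total and 0.564 and 0.482% of the SNI total.

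Transcripts of blood and marrow cells were uneven between the SNI libraries. Of 22 neutrophil and myeloid precursor genes 11 rose, 4 throughout. These 4 were Elane, Ctsg, Mpo and Prtn3, proteases and the peroxidase of primary granules, with Elane at 2.90 and 4.85 FPKM after sham surgery and 21.8 and 27.2 FPKM after axotomy (2.41 ± 0.24). The mature neutrophil genes S100a8 and S100a9 did not pass, and S100a9 measured 251 and 365 FPKM after sham surgery and 424 and 868 FPKM after axotomy. The count was 4 without WT sham 1, 4 without WT SNI 2 and 4 without both WT sham 2 and WT SNI 2. Among 15 lymphocyte and mast cell genes 7 rose, Cd79a (1.41) throughout, and Cd3e and Cd8a did not reach the filter. The number of calls was 4 without WT sham 1, 3 without WT sham 2, 1 without WT SNI 2 and 0 without both WT sham 2 and WT SNI 2. Of 16 erythroid and platelet genes 6 rose, Pf4 and Car1 throughout, with Car1 at 0.400 and 0.358 FPKM after sham surgery and 9.12 and 8.88 FPKM after axotomy. No hemoglobin gene passed, and the count was 2 without WT sham 1, 2 without WT SNI 2 and 2 without both WT sham 2 and WT SNI 2. The erythroid and platelet sum was 0.491 and 0.482% of the sham total and 0.693 and 1.70% of the SNI total. The part of these cells in other calls was not tested beyond the fits without WT SNI 2. The 7 tested skeletal muscle genes gave no call with all 8 libraries, 7 falls without WT sham 1, when WT sham 2 alone stands for sham, and 1 without both WT sham 2 and WT SNI 2. Of 9 adipocyte, bone and cartilage genes, Cfd, Ibsp and Ctsk rose, none throughout (1 without WT sham 1 and 1 without both WT sham 2 and WT SNI 2).

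Many proliferation genes rose, and those named below started from low levels. Of 50 tested, 36 rose, 13 throughout, and 1, E2f1, fell (-0.57, not throughout), while 13 did not pass. The median was 0.74. Prc1, a spindle protein, measured 0.832 and 1.27 FPKM after sham surgery and 11.3 and 13.6 FPKM after axotomy (2.72 ± 0.15), Top2a 0.548 and 0.940 FPKM (sham) and 2.73 and 5.57 FPKM (SNI) (1.51 ± 0.25), and Cdk1 0.287 and 0.621 FPKM (sham) and 2.03 and 3.63 FPKM (SNI) (1.37 ± 0.21). WT SNI 2 was the higher SNI library for all 3. Mki67, the marker Ki-67, rose by 1.53, not throughout. The number of rises was 19 without WT sham 1, 14 without WT SNI 2 and 9 without both WT sham 2 and WT SNI 2.

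Of the lysosomal genes 33.3% were called, a larger share than the 23% over all genes, while the metabolic lists gave few calls that held throughout. Of 33 lysosomal genes 9 rose and 2 fell. The 5 rises that held were Ctss, Ctsh (1.60), Ctsc (1.60), Gusb (0.86) and Abca1, a cholesterol exporter (1.58), whereas Ctsd, Ctsb and Lamp1 did not pass (0.27, 0.12 and 0.20). Rises numbered 5 without WT sham 2, 5 without WT SNI 2 and 4 without both WT sham 2 and WT SNI 2. The falls, Gaa and Mcoln1, did not hold throughout and numbered 1 without WT sham 1, 0 without WT sham 2, 1 without WT SNI 1, 0 without WT SNI 2 and 0 without both WT sham 2 and WT SNI 2. Of 29 genes of cholesterol and fatty acid synthesis, 1 rose, Hsd17b7 (0.99, throughout), and 3 fell, among them Srebf2 and Dhcr7, none throughout (falls numbered 0 without WT sham 1, 0 without WT sham 2, 0 without WT SNI 2, 0 without both WT sham 2 and WT SNI 2 and 5 with libraries centred on their medians). Of 34 glycolysis and citric acid cycle genes 3 rose and 5 fell, 23.5% called against 23% over all genes. Slc2a1, the glucose transporter GLUT1, rose throughout from 17.4 and 18.5 to 40.8 and 28.6 FPKM, and the rises of Pgk1 and Idh2 and the falls, among them Pfkm, Pfkl, Aldoc and Ogdh, did not hold. Falls numbered 2 without WT sham 1, 0 without WT sham 2, 0 without WT SNI 2, 0 without both WT sham 2 and WT SNI 2 and 10 after quantile normalization. Of 51 nuclear genes of the respiratory chain none was called by limma (3 had an unadjusted p under 0.05), none without any 1 WT library, while 1 fell with median centring and 2 after quantile normalization. Their median was 0.10.

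Ribosomal protein genes had higher values in WT SNI, with WT SNI 2 above WT SNI 1 for 62 of 65. Of 65 tested, 18 rose, none throughout, and none fell, with a median of 0.60. The number of calls was 7 without WT sham 1, 1 without WT sham 2, 0 without WT SNI 2, 1 without both WT sham 2 and WT SNI 2 and 10 with libraries centred on their medians. Rplp0 measured 224 and 181 FPKM after sham surgery and 319.6 and 405 FPKM after axotomy (0.83 ± 0.20). Their sum was 4.23 and 3.47% of the sham total and 4.91 and 6.32% of the SNI total. Of 15 clock genes 2 rose, Nfil3 and Per1 (1.08), both throughout. That share of 13.3% was near the 13.6% over all genes.

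The change in WT was set beside that in dKO by the interaction, the only test of a difference. The groups with Y-linked transcripts, WT sham and dKO SNI, are those that this contrast subtracts. A difference in response between the genotypes cannot be told apart in this test from a difference between animals with and without Y-linked transcripts. The interaction called 7 genes (0.0543%), and 1863 had an unadjusted p under 0.05. The count was 20 without WT sham 1, 11 without WT SNI 2 and 15 without dKO SNI 1, so it depended on single libraries. Of these 7, Eif2s3y, Ddx3y, Uty and Kdm5d are the Y-linked genes above. Tyrp1, a melanocyte enzyme, measured 3.61 and 4.36 FPKM after sham surgery and 16.9 and 16.7 FPKM after axotomy in WT, a rise of 1.84. In dKO it went the other way, from 25.6 and 23.5 to 9.83 and 8.53 FPKM. The other melanocyte genes of its list (Dct, Pmel, Mlana, Tyr and Oca2) did not reach the filter. Asprv1, a skin protease, measured 1.51 and 1.38 FPKM after sham surgery and 2.36 and 2.70 FPKM after axotomy in WT, and in dKO 1.17 and 1.27 FPKM after sham surgery and 7.22 and 7.74 FPKM after axotomy. The remaining call, Gm38495, is a predicted gene. Eln came next without passing (interaction adjusted p = 0.065 in limma). Its dKO values were 3.59 and 5.63 FPKM after sham surgery and 5.48 and 5.55 FPKM after axotomy. In dKO, 3069 genes were called higher (23.8% of those tested) and 3167 lower (24.6%). Of the 1758 genes that rose in WT, 1428 were also called higher in dKO (81.2% of the WT rises and 46.5% of the dKO rises) and 6 lower. Of the 1209 that fell, 1132 were also called lower (93.6% of the WT falls and 35.7% of the dKO falls) and 6 higher. None of the injury-induced peptides, AP-1 and ATF factors, sodium channels or macrophage genes passed the interaction, which with 2 libraries a group does not show that the genotypes respond alike.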

How the data were processed

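Bulk RNA-seq was measured in 8 libraries of whole ganglia (TruSeq, paired-end, strand not stated). The deposited table holds FPKM per gene. Tools listed there, per the submitters' processing notes, are edgeR, StringTie 1.3.0 and HISAT2 2.0.4, with the builds GRCm38.p4 and mm10. Which step gave these values is not recorded. Whole reads could not be recovered from the FPKM, so no count test was run and read depth is unknown.

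Columns were matched to samples by title, and genes that did not reach 1 FPKM in at least 2 libraries were left out. Values were taken as log2(FPKM + 1) and fitted as 4 group means in limma 3.58.1 (R 4.3.3), with a mean-variance trend and 4 residual degrees of freedom. The same script was run on simulated data, with independent noise around each gene's mean and changes planted in WT SNI. Those data held no differences that move with a library or with the Y-linked transcripts, so the run does not bear on these. With 2 libraries in each group the smallest exact permutation p is 0.333, so single genes were tested in the model alone. Of the symbols, 27 look like dates and 2 are duplicated.

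Named genes were the targeted genes and Avil, the 15 largest rises and falls among called genes without overlap (predicted and Y-linked genes apart), the 10 largest gains and losses of mean FPKM, and in each list up to 8 members with the smallest p and 3 abundant ones that did not pass, plus members that complete a role. For the difference from dKO the 10 genes with the smallest p could be named. The members and the gene lists were chosen with earlier results of these data known. Alternatives were pseudocounts of 0.1 and 0.5, no filter, a mean of at least 5 FPKM, median centring, quantile normalization, robust moderation, WT libraries alone, a replicate block and each library left out. Promoter sequences are from RefSeq (GRCm38.p6). Some genes of these lists are counted but not reported here by name.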

Additional observations from a re-analysis of the deposited data

Results flagged for a closer look

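The change after axotomy differed between the genotypes by the interaction test in 7 genes (limma, adjusted over all tested genes). Given as the WT change minus the dKO change on the log2 scale, the Y-linked genes differed by -7.63 (Eif2s3y), -7.06 (Ddx3y), -4.27 (Uty) and -3.68 (Kdm5d). In these 4 genes both WT sham and both dKO SNI libraries held transcripts, and the other 4 libraries were at or near 0. The melanocyte gene Tyrp1 differed by 3.17, the skin protease Asprv1 by -1.40 and the predicted gene Gm38495 by -2.55. In these genes too, a difference between genotypes cannot be told apart from one between animals with and without Y-linked transcripts.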

How the results depend on the processing

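With 2 libraries a group, the count of calls depended most on the WT libraries. Leaving out each of the 8 libraries in turn gave 1101 to 3026 calls, 749 to 1808 rises and 344 to 1265 falls, and the interaction gave 5 to 20. With a mean of at least 5 FPKM, which tests fewer genes, there were 1869 calls, 1030 rises and 3 interaction calls. Without both WT sham 2 and WT SNI 2, chosen after seeing the data, there were 449 calls, 373 rises and 76 falls. No change of a named gene that was called turned its direction under any alternative. The replicate numbers were not taken to pair the samples. Deviations of libraries with the same number correlated at -0.15 between WT sham and WT SNI and at -0.19 to 0.25 between other groups. With 2 libraries a group, these correlations cannot decide whether the numbers pair the samples. With the number as a replicate block, limma gave 1723 rises, 1158 falls and 12 interaction calls. The cause of these shifts was not tested. Depth is unknown from FPKM, and values near 0 in particular carry a counting error that these files do not show.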
